A study of Homo sapiens with 6 samples.

Results

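The BTB and SCAN domain zinc-finger genes were followed in MDA-MB-231 cells, a widely used human breast cancer line of mesenchymal type, after knockdown of BYSL, which encodes bystin, a maturation factor of the small ribosomal subunit. They were taken as every protein-coding entry of the deposited count table whose symbol is ZBTB, ZSCAN or ZKSCAN followed by a number. This gave 66 genes of the 29538 in the table, of which 41 were ZBTB, 18 ZSCAN and 7 ZKSCAN genes. One of them, ZBTB8OS, is named for its position opposite the ZBTB8 genes and is not itself a zinc-finger gene, and it was kept because the rule takes symbols. Of the 66 genes, 61 had enough counts to be tested. The control group (siNC) was 3 cultures given a negative-control siRNA, and the knockdown group (siBYSL) was 3 cultures given 1 siRNA against BYSL. Both groups were the same line, received 160 pmol siRNA per well with 4 µL of lipid reagent, had the medium changed after 6 h and were harvested at 48 h. The knockdown thus rests on 1 siRNA sequence in 1 cell line, and the cultures are labelled as separate biological replicates.

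C2H2 zinc fingers are small zinc-holding loops, several of which in a row read a DNA sequence. In ZBTB proteins they follow an N-terminal BTB domain, which pairs with another BTB domain and in several members binds corepressors such as NCOR1 and BCOR or the ubiquitin ligase scaffold CUL3. In ZSCAN and ZKSCAN proteins they follow a SCAN domain, which also pairs proteins with each other but is not known as a repressor by itself. ZKSCAN proteins carry a KRAB domain in addition, the domain through which many zinc-finger proteins bind the corepressor TRIM28. Most genes named ZNF encode C2H2 proteins without a BTB domain, many of them with KRAB, and served as the related class for comparison. That class was taken by symbol, so it also held the BTB gene ZNF131 and 21 tested SCAN genes.

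The 3′ UTR stretches and the siRNA strand below are shown because some members carry a match to the siRNA, among them ZBTB18, which had the lowest fold change of all members. The guide strand of the BYSL siRNA, with bases 2 to 8 (its seed) in capitals, pairs with the letters GCTGAAT. The 3′ UTR sites are on GRCh38 (GENCODE 29), read 5′ to 3′ on the strand of the gene, with these letters in capitals.
Guide strand: uAUUCAGCaacgucaucuctt
ZBTB18, chr1:244056374-244056380, plus strand: tgaaactgttaaGCTGAATaaaa
ZBTB33, chrX:120255810-120255816, plus strand: tagcactttactGCTGAATtctc
ZBTB7A, chr19:4044858-4044864, minus strand: ccaaagatacctGCTGAATtctc
ZBTB37, chr1:173890181-173890187, plus strand: tcattcttaataGCTGAATaatc
Of these 4 genes, ZBTB18 and ZBTB33 fell, ZBTB7A rose and ZBTB37 did not pass the test. In ZBTB18 and in the ZBTB37 site shown the 7 letters are followed by an A, and in ZBTB33 and ZBTB7A by a T. ZBTB37 holds a second site, not shown, that is not followed by an A.

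The libraries held 27754883 to 32088817 counts. The targeted gene, BYSL, had counts of 2908, 2648 and 3006 in the siNC libraries and of 459, 519 and 502 in the siBYSL libraries (log2 fold change -2.61, SE 0.067, edgeR quasi-likelihood F test with Benjamini-Hochberg adjustment, adjusted p = 9.4e-09), so every library followed its label. Libraries siBYSL 1 and siBYSL 3 were the least alike of any pair within a group (r = 0.9918 over genes, which are not independent replicates), and calls that changed without siBYSL 3 are given with and without it. The summed level of 6 markers of the line ran from 5270 to 5340 CPM in siNC and from 4450 to 4660 CPM in siBYSL. CPM are counts relative to the size of the library. VIM (mean of 2400 CPM in siNC), AXL, MSN and CAV1 fell, CD44 rose, and the mean of SPARC was under 1 CPM in both groups. Of 10 luminal epithelial markers, EPCAM, CDH1 and ELF3 rose and KRT19 fell, ESR1, PGR and FOXA1 were under 1 CPM, and the sums overlapped (1640 to 1770 and 1560 to 1920 CPM). The summed levels of 5 leukocyte markers (14.2 to 16.5 and 17.2 to 21.7 CPM; CD3E was not analysed here) and 4 endothelial markers (9.48 to 10.6 and 10.9 to 12.2 CPM) were higher in every siBYSL library. CD68 rose from 3.78 to 5.32 CPM, CD14 (11.2 and 12.9 CPM) and PECAM1 (5.32 and 6.48 CPM) were not called, and PTPRC and CDH5 were near 0. The sums of 6 fibroblast markers were 13.8 to 16.6 and 16.5 to 18.0 CPM, where PDGFRB rose from 4.61 to 6.08 CPM and PDGFRA was near 0. The part of these shifts in the results below was not tested. In bulk libraries, a change in the make-up of the culture and a change of RNA per cell cannot be told apart.

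Among the 61 tested members 15 rose and 4 fell in siBYSL, and 42 did not pass the test. The shares were 24.6% higher and 6.56% lower. Over all 16412 genes tested, 18.5% were higher and 18.4% lower; scaled by library totals alone, 25.0% and 12.1% were, beside 17 and 3 of the members. Over protein-coding genes these shares were 19.7% and 20.9%, and over the 9212 protein-coding genes within the members' range of mean CPM they were 21.7% and 20.2%. The share of members that rose was thus near the background, and the share that fell was smaller than it. No test of the list was made. Fold changes were small: the median over the 61 members was 0.06 on the log2 scale, beside 0.01 over all genes tested, and the range ran from -0.78 (ZBTB18) to 0.95 (ZSCAN29). The siBYSL libraries were all above the siNC libraries in 17 members and all below them in 11. Over all genes tested these shares were 24.7% and 24.9%. Without siBYSL 3, 18 members were higher and 6 lower, beside 23.5% and 24.3% of all genes. The calls gained were those of ZKSCAN7 (log2 fold change 0.39 with all libraries and 0.51 without siBYSL 3), ZSCAN2 (0.39 and 0.42), ZBTB38 (0.06 and 0.19), ZBTB39 (-0.32 and -0.36) and ZBTB9 (-0.17 and -0.19).

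**Figure D1:**
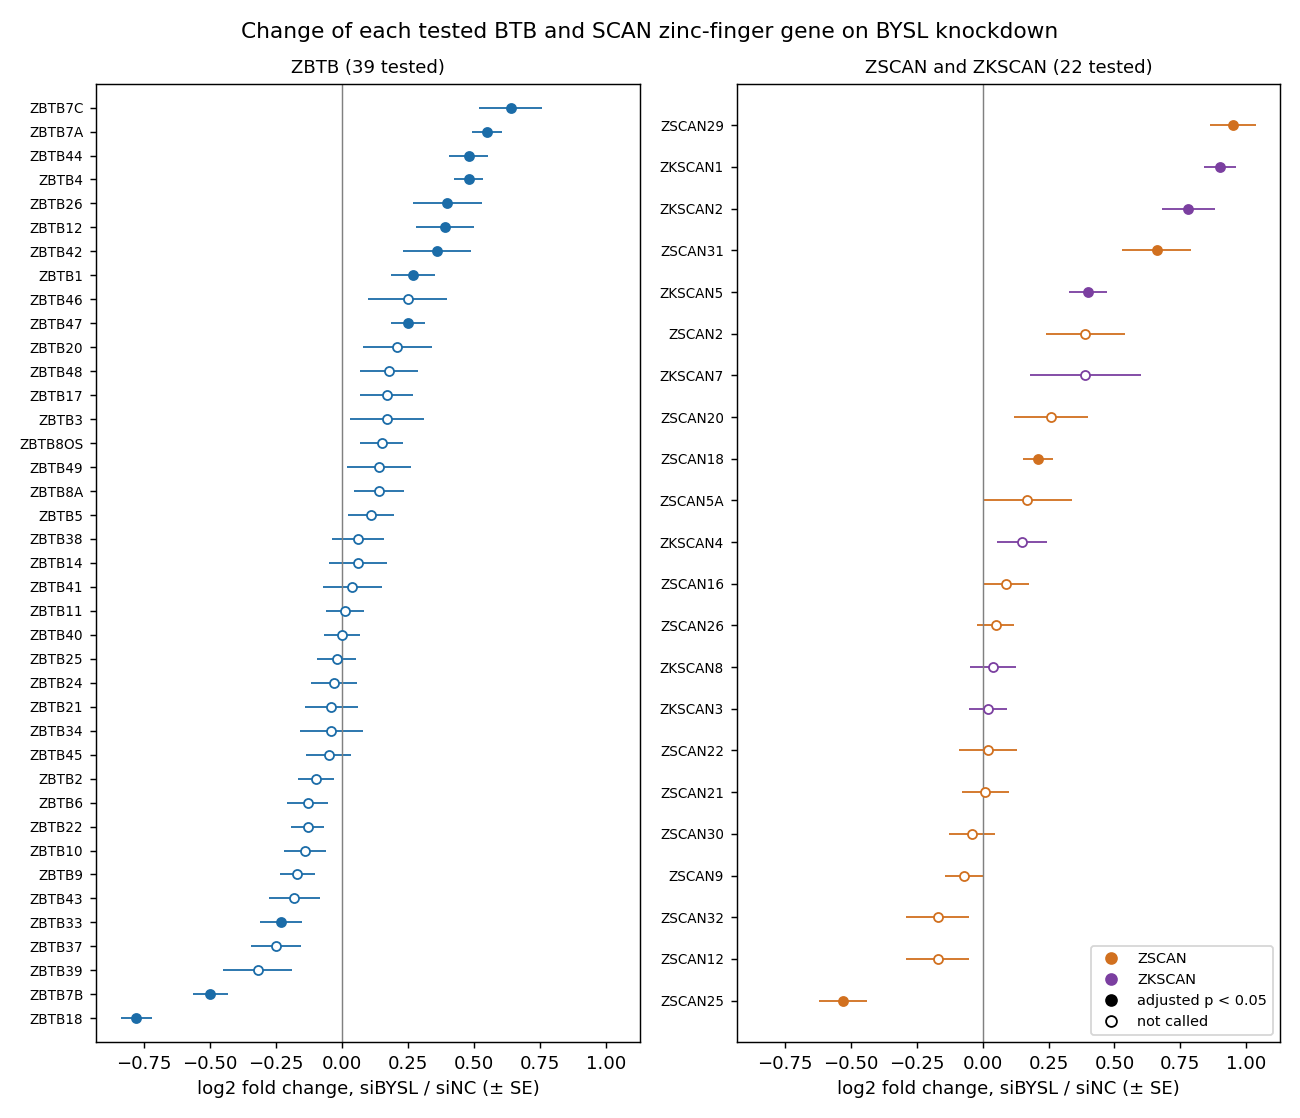
Log2 fold change of siBYSL over siNC (horizontal axis) for each of the 61 tested members, with bars of 1 SE, in a panel for ZBTB genes and a panel for ZSCAN and ZKSCAN genes. Filled points are the 15 members that rose and the 4 that fell at an adjusted p under 0.05, and open points are the 42 that did not pass, which ran from -0.32 to 0.39.

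Among the related ZNF genes most calls were rises. Of 451 tested ZNF genes, 192 (42.6%) were higher and 19 (4.21%) lower, with a median log2 fold change of 0.24. The members' share of calls that were higher was 78.9% (15 higher and 4 lower), and that of the ZNF genes 91.0%. Over all genes tested the calls were nearly balanced, with 3032 higher and 3027 lower. A positive log2 fold change was found in 50.8% of all genes tested and in 79.4% of the ZNF genes. All 7 ZKSCAN genes had a positive log2 fold change, from 0.02 to 0.90, and 3 of them rose. Their median of 0.39 was the value of ZKSCAN7, which was not called (SE 0.21). The median log2 ratio of these genes to the siNC mean was 0.48, 0.21 and 0.18 in siBYSL 1 to 3. The 15 tested ZSCAN genes had a median of 0.05 (3 rose, 1 fell) and the 39 ZBTB genes a median of 0.06 (9 rose, 3 fell). Differences between these classes were not tested.

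**Figure D2:**
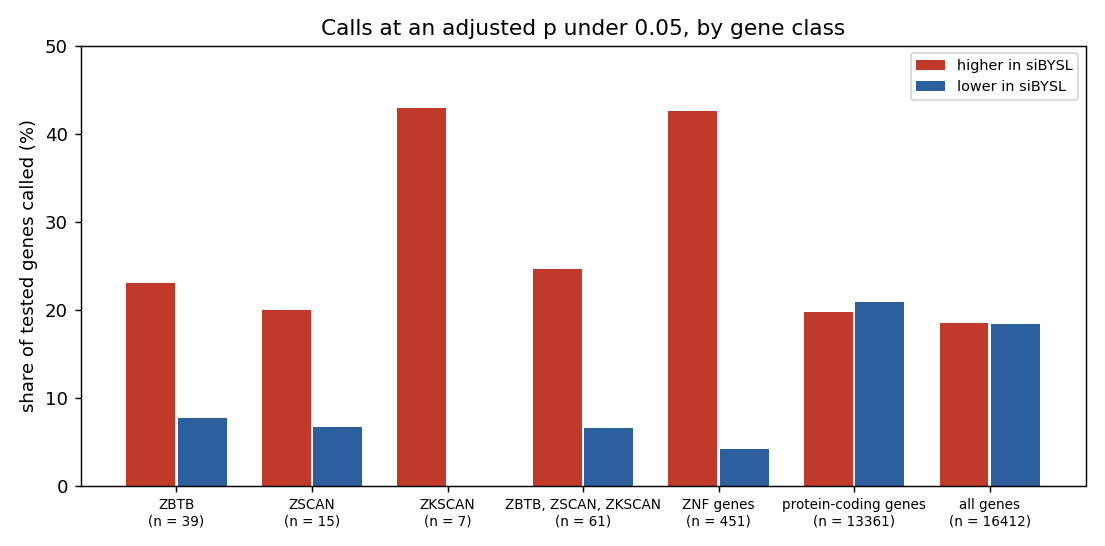
Share of tested genes (percent, vertical axis from 0) called higher or lower in siBYSL (adjusted p under 0.05), by gene class. The higher share was 24.6% in the members and 42.6% in the ZNF genes, and the lower share was 6.56% and 4.21%.

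**Figure D3:**
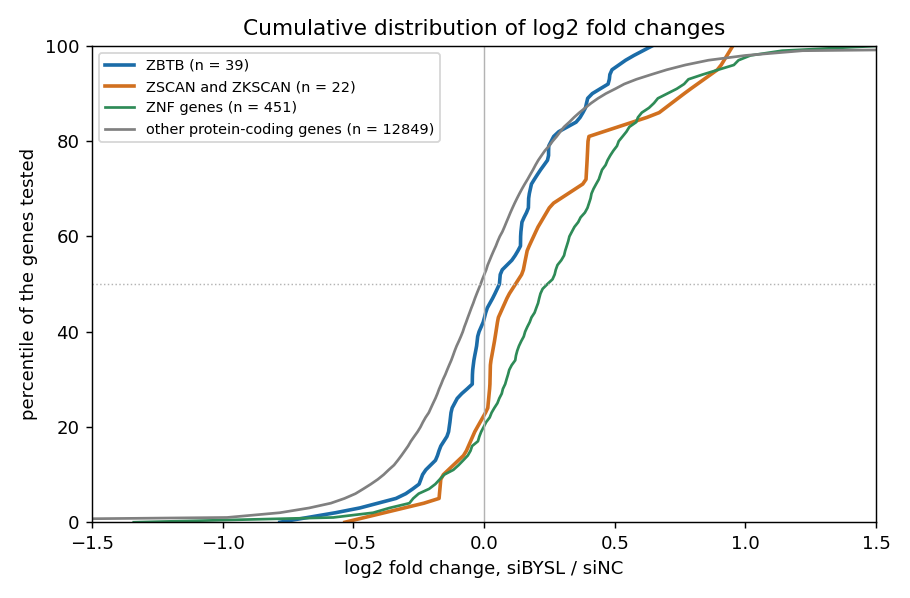
Cumulative share of genes (vertical axis) by log2 fold change of siBYSL over siNC (horizontal axis) for the 39 ZBTB genes, the 22 ZSCAN and ZKSCAN genes, the 451 ZNF genes and the other protein-coding genes. In its middle part the ZNF curve lies to the right, with its median at 0.24, while the medians of the ZBTB and the SCAN genes were 0.06 and 0.12. The ZNF and SCAN curves cross toward both ends. The 5th percentile was -0.27 for ZNF and -0.17 for SCAN genes, and the 90th was 0.70 and 0.77.

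The largest rise among the SCAN genes was that of ZSCAN29. Its level in libraries 1 to 3 was 9.52, 10.2 and 10.6 CPM for siNC and 20.9, 20.0 and 17.8 CPM for siBYSL. The groups did not overlap, and the mean rose from 10.1 ± 0.57 to 19.6 ± 1.6 CPM (SD, n = 3 each, log2 fold change 0.95, SE 0.086, edgeR adjusted p = 1.96e-05). ZSCAN29 (ENSG00000140265.13) is on the minus strand of chromosome 15 (GRCh38, 43358172 to 43371025), and 1.5% of its exon length lies opposite exons of TUBGCP4.

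ZKSCAN1 is known for a circular RNA formed from its exons, which poly(A) capture is not designed to retain. The gene stood at 25.6, 25.5 and 23.8 CPM in siNC and at 46.0, 47.9 and 45.6 CPM in siBYSL (log2 fold change 0.90, SE 0.06, edgeR adjusted p = 2.95e-06). Both groups were tight and far apart. ZKSCAN2 rose from 5.65, 5.92 and 5.22 CPM to 9.01, 9.23 and 10.6 CPM (0.78, SE 0.1, adjusted p = 0.00021). ZSCAN31 was the least abundant of these 4 genes, at 2.58, 2.32 and 2.66 CPM in siNC and 4.06, 3.9 and 4.03 CPM in siBYSL (0.66, SE 0.13, adjusted p = 0.00206). In each of the 4 genes the lowest siBYSL library lay above the highest siNC library. ZKSCAN5 (0.40) and ZSCAN18 (0.21) rose by less, and the call of ZSCAN18 ended without any single siNC library or siBYSL 2 (adjusted p of up to 0.0698).

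ZSCAN25 went the other way and was the SCAN gene that fell. Its levels were 12.3, 11.7 and 12.8 CPM in siNC and 7.97, 9.23 and 8.23 CPM in siBYSL, again with no overlap (log2 fold change -0.53, SE 0.09, edgeR adjusted p = 0.00096). ZKSCAN3, a repressor of autophagy genes, had 16.8, 17.7 and 16.8 CPM in siNC and 17.3, 16.6 and 18.2 CPM in siBYSL. The groups overlapped (log2 fold change 0.02, SE 0.071, adjusted p = 0.837). ZSCAN21 had 9.16, 10.1 and 10.8 CPM and 10.3, 9.98 and 10.1 CPM (0.01, SE 0.089, adjusted p = 0.922), and 41.1% of its exon length lies opposite exons of ZNF3, so its counts are uncertain where strand was not used. ZSCAN4, active in the early embryo and at telomeres of embryonic stem cells, was not tested, with 2, 3 and 1 counts in siNC and 5, 4 and 1 in siBYSL. ZSCAN5B and ZSCAN23 held at most 2 counts in any library and were not tested either.

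**Figure D4:**
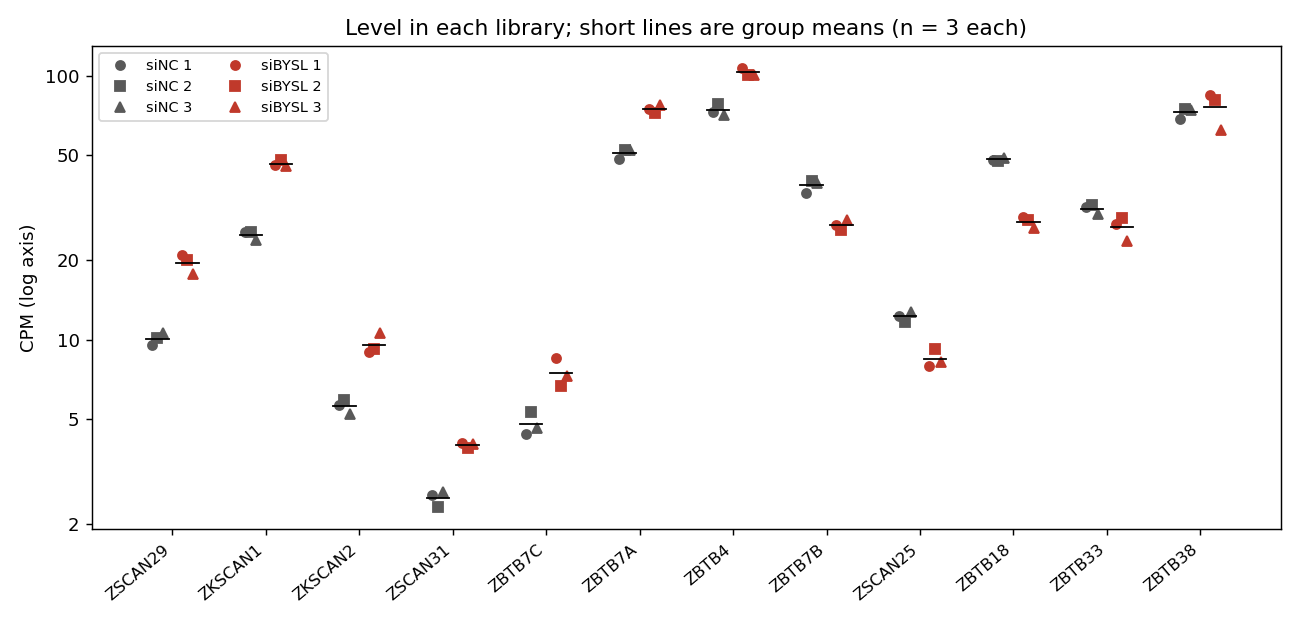
Level in CPM (log axis) of 12 members in each of the 6 libraries, with the siNC and siBYSL libraries in separate colours. ZSCAN29, ZKSCAN1, ZKSCAN2, ZSCAN31, ZBTB7C, ZBTB7A and ZBTB4 lie higher in all 3 siBYSL libraries, ZBTB7B, ZSCAN25, ZBTB18 and ZBTB33 lie lower in all 3, and the groups overlap for ZBTB38.

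The 3 ZBTB7 genes, which encode closely related proteins, did not move in 1 direction. ZBTB7A, also called LRF, silences fetal globin genes in red cell precursors and is expressed in many tissues. It stood at 48.4, 52.3 and 52.3 CPM in siNC and 74.5, 72.2 and 77.6 CPM in siBYSL (log2 fold change 0.55, SE 0.057, edgeR adjusted p = 4.49e-05). ZBTB7C, at 4.4, 5.32 and 4.65 CPM in siNC and 8.53, 6.66 and 7.29 CPM in siBYSL, also rose (0.64, SE 0.12, adjusted p = 0.00232). ZBTB7B, also called ThPOK and known for the choice of the CD4 T-cell fate, fell from 36.1, 40.1 and 39.1 CPM to 27.3, 26.0 and 28.3 CPM (-0.50, SE 0.066, adjusted p = 0.000196). The groups did not overlap in any of the 3 genes. Per kilobase of exon, ZBTB7A and ZBTB7B were at nearly the same level in siNC (8.91 and 8.94 CPM per kilobase).

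ZBTB18, also called RP58, is a repressor required in developing cortical neurons, and it had the largest fall of all members. Its level was 48.1, 47.6 and 48.9 CPM in siNC and 29.2, 28.3 and 26.6 CPM in siBYSL. The mean fell from 48.2 ± 0.65 to 28.0 ± 1.3 CPM (SD, n = 3 each, log2 fold change -0.78, SE 0.059, edgeR adjusted p = 6.51e-06). ZBTB18 (ENSG00000179456.10) is on the plus strand of chromosome 1 (244048939 to 244057476), and its 3′ UTR holds the guide-seed match printed above. At 12.3 CPM per kilobase of exon in siNC it was among the most abundant members. ZBTB42, a gene related to ZBTB18, rose (0.36, adjusted p = 0.0477), a call that was lost in 9 of 14 alternative fits, among them every omission of 1 library but that of siBYSL 3 (adjusted p of up to 0.16).

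The 3 members that bind methylated CpG sites also differed. ZBTB4 had 72.9, 78.1 and 71.0 CPM in siNC and 107, 101 and 101 CPM in siBYSL and rose (log2 fold change 0.48, SE 0.055, edgeR adjusted p = 8.86e-05). It was the most abundant member in mean CPM. ZBTB33, also called Kaiso, fell slightly, from 31.8, 32.4 and 29.9 CPM to 27.5, 28.9 and 23.6 CPM (-0.23, SE 0.08, adjusted p = 0.0428). The call for ZBTB33 ended with library totals as the scale (-0.15, adjusted p = 0.19), with upper-quartile factors and without any single siNC library. ZBTB38 had 68.5, 75.0 and 74.3 CPM in siNC and 84.4, 80.9 and 62.1 CPM in siBYSL. Libraries siBYSL 1 and 2 were above all siNC libraries and siBYSL 3 was below them all (0.06, SE 0.099, adjusted p = 0.655). Without siBYSL 3, ZBTB38 had a log2 fold change of 0.19 and passed the test (adjusted p = 0.00265).

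Several members known from other tissues were measured without a call. ZBTB10, a repressor of SP genes, had 20.3, 22.9 and 20.1 CPM in siNC and 19.5, 20.0 and 18.0 CPM in siBYSL (log2 fold change -0.14, edgeR adjusted p = 0.193). ZBTB17, also called MIZ1, a partner of MYC, had 19.1, 15.5 and 18.0 CPM and 20.5, 17.1 and 21.7 CPM (0.17, adjusted p = 0.228). ZBTB48, also called TZAP, which binds telomeres, had 12.8, 12.5 and 11.3 CPM and 12.6, 12.6 and 16.4 CPM (0.18, adjusted p = 0.231). Its highest library was siBYSL 3, without which the log2 fold change was 0.05. ZBTB20, which represses alpha-fetoprotein in liver, had 4.87, 5.42 and 4.11 CPM and 6.07, 5.72 and 4.86 CPM (0.21, adjusted p = 0.243). ZBTB46, a marker of dendritic cells, had 2.72, 2.39 and 2.93 CPM and 2.77, 3.3 and 3.47 CPM (0.25, adjusted p = 0.217). Values of the groups overlapped in ZBTB17, ZBTB20, ZBTB46 and ZBTB48, while in ZBTB10 every siBYSL library was below every siNC library. ZBTB16, also called PLZF, was close to silent, with 0, 0 and 1 counts in siNC and 2, 6 and 3 in siBYSL, and was not tested. ZBTB32, known from lymphocytes, had 3 to 6 counts in every library and was not tested.

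The other ZBTB genes that rose were ZBTB44 (0.48), ZBTB26 (0.40), ZBTB12 (0.39), ZBTB1 (0.27) and ZBTB47 (0.25). ZBTB44 went from 36.8, 43.7 and 38.9 CPM to 58.5, 56.4 and 51.9 CPM (SE 0.075, edgeR adjusted p = 0.000577). ZBTB26 passed the test although siBYSL 3 (7.12 CPM) lay just under siNC 2 (7.24 CPM). The calls of ZBTB1, ZBTB12, ZBTB26 and ZBTB47 each ended when siNC 1 was left out, with adjusted p of up to 0.0932, 0.0754, 0.147 and 0.0704 over the alternative fits. ZBTB8OS, the member that is no zinc-finger gene, had 39.5, 40.6 and 40.9 CPM in siNC and 40.8, 42.1 and 50.9 CPM in siBYSL (0.15, adjusted p = 0.191). Its siBYSL 3 library was high beside the other 5, and without it the log2 fold change was 0.04.

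Levels per kilobase of exon in siNC ran from 0.151 CPM per kilobase (ZBTB20, whose annotated exons are very long) to 12.8 (ZBTB22), with a median of 2.42. After ZBTB22, which did not pass the test (-0.13, adjusted p = 0.121), came ZBTB18, ZBTB4 (12.1) and ZBTB8OS (11.4). Members that rose ran from 0.508 (ZSCAN31) to 12.1 CPM per kilobase (ZBTB4). Those that fell were at 1.73 (ZSCAN25), 5.9 (ZBTB33), 8.94 (ZBTB7B) and 12.3 (ZBTB18), so none was among the scarcest members. The 5 lowest-count members were outside the test, so nothing is said of their direction.

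Beyond the 4 genes whose sites are printed above, the guide-seed letters were found in the 3′ UTR of ZBTB6, ZBTB8OS, ZBTB10, ZBTB20, ZBTB25, ZSCAN12 and ZSCAN26, 11 tested members in all. Of these 11, 1 rose (ZBTB7A) and 2 fell (ZBTB18 and ZBTB33), with a median log2 fold change of -0.13. Of the 50 without the letters, 14 rose and 2 fell, with a median of 0.12. Both falls outside the matched group were of genes described above, ZBTB7B and ZSCAN25. Over all tested protein-coding genes with an annotated 3′ UTR, 33.8% of 1548 with the letters and 19.2% of 11495 without them were lower, and 15.1% and 20.6% were higher. Among ZNF genes 20 of 58 with the letters rose and 4 fell, beside 172 and 15 of 389 without them. A match of 7 letters is a description of the sequence and was not measured as binding, and long 3′ UTRs can hold more of them. ZBTB20 holds 4 matches in an annotated 3′ UTR of 24504 bases and was not called. The part of these matches in the fold changes was not tested.

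**Figure D5:**
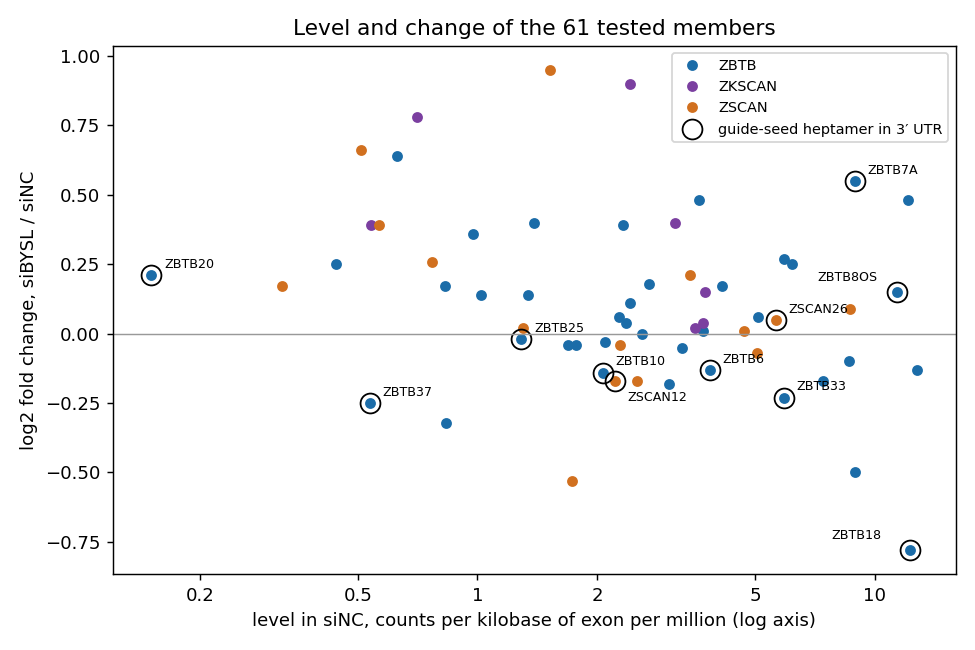
Log2 fold change of siBYSL over siNC (vertical axis) against the siNC level in CPM per kilobase of exon (log axis) for the 61 tested members, coloured by class. Circles mark the 11 members whose 3′ UTR holds the guide-seed heptamer. ZBTB18 is the lowest point, and ZBTB7A is the circled member that rose.

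Promoters were read for 57 of the 66 members from RefSeq (GRCh38.p14), from 250 bases before the gene start to 50 after it. The letters CCGGAAG, the core bound by many ETS factors, were searched on both strands. They were present in 21 of 57 members (36.8%), 170 of 416 ZNF genes (40.9%) and 2118 of 12827 protein-coding genes (16.5%). Among tested members the core was present in 12 of 19 SCAN genes (63.2%) and 9 of 34 ZBTB genes (26.5%). The promoters of ZSCAN29 and ZKSCAN1, the members with the largest rises, and of ZSCAN25, the SCAN gene that fell, are shown because all 3 hold the core while their transcripts moved in opposite directions. The core is in capitals, as CTTCCGG where it lies on the other strand.
ZSCAN29, chr15:43370994-43371293, minus strand: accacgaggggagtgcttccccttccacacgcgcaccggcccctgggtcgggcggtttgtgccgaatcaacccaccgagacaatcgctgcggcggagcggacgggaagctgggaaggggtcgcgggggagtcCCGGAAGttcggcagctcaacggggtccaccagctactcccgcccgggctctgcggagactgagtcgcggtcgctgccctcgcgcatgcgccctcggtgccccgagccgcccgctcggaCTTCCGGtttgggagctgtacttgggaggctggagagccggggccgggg
ZKSCAN1, chr7:100015346-100015645, plus strand: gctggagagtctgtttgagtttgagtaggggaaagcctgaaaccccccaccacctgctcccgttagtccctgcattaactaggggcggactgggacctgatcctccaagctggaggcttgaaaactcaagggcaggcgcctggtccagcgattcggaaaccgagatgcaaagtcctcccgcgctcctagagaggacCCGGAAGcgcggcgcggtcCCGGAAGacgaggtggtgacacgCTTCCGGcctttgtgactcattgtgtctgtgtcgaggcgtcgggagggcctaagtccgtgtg
ZSCAN25, chr7:99616696-99616995, plus strand: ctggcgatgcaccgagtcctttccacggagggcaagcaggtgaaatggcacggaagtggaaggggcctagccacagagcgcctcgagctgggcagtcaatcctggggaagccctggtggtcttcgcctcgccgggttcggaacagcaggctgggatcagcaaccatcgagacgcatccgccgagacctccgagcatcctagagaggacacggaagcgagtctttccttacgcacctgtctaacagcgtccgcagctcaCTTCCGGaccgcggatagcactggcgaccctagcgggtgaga
ZKSCAN1 held 3 copies of the core, ZSCAN29 held 2 and ZSCAN25 held 1. Of the 21 tested members with the core 4 rose and 2 fell, and of the 32 without it 10 rose and 2 fell. Both groups thus held rises and falls. Over protein-coding genes 15.7% rose and 21.8% fell with the core, and 21.0% rose and 20.6% fell without it. Of the ZNF genes, 43.2% rose with the core and 42.4% without it. The GC box letters GGGCGG were found in 66.7% of member promoters and 64.9% of all protein-coding promoters, and the E-box letters CACGTG in 15.8% and 9.5% (5.0% of ZNF genes). The GC box and the E-box were also searched on both strands.

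Of 9 stretches of chromosome where members lie close together, 1 held both a rise and a fall and the others held no fall. On chromosome 7, from 99504651 to 100065038, ZKSCAN5 rose, ZSCAN25 fell, ZKSCAN1 rose and ZSCAN21 was not called. On chromosome 6, from 28124560 to 28443502, lie 9 SCAN genes, of which 8 were tested and ZSCAN31 rose. The others tested there were ZSCAN9, ZSCAN12, ZSCAN16, ZSCAN26, ZKSCAN3, ZKSCAN4 and ZKSCAN8, and none of them passed the edgeR test. Their log2 fold changes included 0.15 for ZKSCAN4 and -0.17 for ZSCAN12. On chromosome 14, ZBTB1 rose (0.27) and ZBTB25 did not (-0.02, adjusted p = 0.831). ZBTB1 and ZBTB25 share 507 bases of exon on opposite strands. In all, 23 of the 61 tested members share exon bases with another gene of the table, among them 5 of the 15 that rose and 1 of the 4 that fell. The libraries were stranded, but no source used here says whether the counting used strand. Among the 38 members without such overlap, 10 rose and 3 fell, beside 18.5% and 18.4% of all genes tested.

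Genes of the same domain classes also exist under other symbols. Of 7 tested BTB zinc-finger genes named otherwise, BCL6, the repressor of germinal centre B cells, rose from 17.7 ± 0.24 to 25.1 ± 2.0 CPM (SD, n = 3 each, log2 fold change 0.51, edgeR adjusted p = 0.000396), and the other 6 were not called. Of 24 tested SCAN genes named otherwise, 4 rose and 2 fell, with a median of 0.11. These shares, 16.7% and 8.33%, and those of the 7 BTB genes, 14.3% and 0.0%, stood beside 18.5% and 18.4% over all genes tested. ZNF18 rose by 0.96, ZNF197 by 0.51, ZNF397 by 0.48 and ZNF232 by 0.32. ZNF215 fell by 0.42 and ZNF496 by 0.35.

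Partners of these proteins were called in both directions. Of 16 corepressors and adaptors of BTB proteins, 2 rose and 3 fell, with a median of -0.03. These shares, 12.5% and 18.8%, stood beside 18.5% and 18.4% over all genes tested. HDAC1, a histone deacetylase, rose by 0.32 and TBL1X by 0.24, while GPS2, a subunit of corepressor complexes, fell by 0.34 and CTBP2 fell by 0.19. NCOR1 (0.01), BCOR (0.13) and CUL3 (-0.08) did not pass the test. Of 5 genes of the KRAB corepressor machinery, TRIM28 fell by 0.18 (adjusted p = 0.03), the heterochromatin protein gene CBX3 fell by 0.24 and CBX5 rose by 0.17, while the methyltransferase gene SETDB1 (0.10) and CBX1 (0.10) were not called.

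Known targets of 3 members were read from short lists. Of the SP genes repressed by ZBTB10, SP4 rose from 3.62 ± 0.079 to 5.72 ± 0.14 CPM (SD, n = 3 each, log2 fold change 0.66, edgeR adjusted p = 0.000744), while SP1 (-0.03) and SP3 (-0.11) were not called. Of the cell-cycle inhibitors activated by ZBTB17, CDKN1A, whose 3′ UTR also holds the guide-seed letters, fell by 1.78 and CDKN1C rose by 0.87, and CDKN2B was not tested. Of 5 autophagy genes repressed by ZKSCAN3, ULK1, the initiating kinase, rose by 0.54 and WIPI2 by 0.42, while MAP1LC3B (-0.08), GABARAPL2 (0.06) and ATG4B (-0.08) were not called. Beside these 3 short lists, 18.5% of all genes tested were higher and 18.4% lower. The transcripts of ZBTB10, ZBTB17 and ZKSCAN3 themselves were not called. Of 18 KLF and SP genes, another C2H2 class that binds GC-rich promoters, 4 rose and 3 fell, with a median of 0.02. These shares, 22.2% and 16.7%, stood beside 18.5% and 18.4% over all genes tested. KLF13 (0.63), KLF2 (0.38) and SP4 were among the rises, and KLF5 was among the falls (-0.28).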

How the data were processed

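RNA-seq libraries from 3 siNC and 3 siBYSL cultures were poly(A)-captured, stranded and read as 150-nt pairs, per the labels' protocols. The authors deposited raw counts per gene as whole numbers, and, per the submitters' processing notes, HISAT2, DESeq2 and GRCh38.p13 were used, with no role named. Which tool counted the reads, whether it used strand and with which annotation is not given in the sources used here.

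Counts were filtered by filterByExpr, scaled by TMM and tested with the edgeR 4.0.16 quasi-likelihood F test (robust, group only, R 4.3.3), with Benjamini-Hochberg adjustment over 16412 genes and a threshold of 0.05. An adjusted p is from this fit unless an alternative or a left-out library is named beside it. SE was taken as the size of the log2 fold change over the square root of F. Libraries held 27754883 to 32088817 counts, CPM used these totals multiplied by the TMM factors, and the common biological coefficient of variation was 0.0649. On simulated data, 44.9% of 49 genes changed 1.25-fold and 80% of 50 changed 1.5-fold were called, so small changes can be missed. In that simulation 15994 of the 16191 genes tested were left unchanged. In the real data 3032 genes were called higher and 3027 lower, which makes the adjusted threshold less strict. The simulated shares are therefore not the sensitivity of the real comparison.

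Members named with values in each library were those called with an absolute log2 fold change of 0.5 or more, the 5 most abundant and 16 with a textbook role, of which ZSCAN10 was not analysed here. The members and the lists were chosen with earlier results of these data known. Exon lengths, overlaps and 3′ UTRs (the longest of each gene) came from GENCODE 29, and promoters from RefSeq. Alternatives were DESeq2 1.42.0 (size factors and Wald test), limma 3.58.1 voom, library totals, upper-quartile factors, 2 filters, a replicate block, each library left out, and members without a guide-seed match. Leaving out ZBTB8OS, or members with exon overlap, was added after the data were seen. Summaries and figures used Python 3.11.15 (NumPy 2.4.6, pandas 2.3.3, Matplotlib 3.10.9). Values of some listed genes are not reported here.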

Additional observations from a re-analysis of the deposited data

How the results depend on the processing

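ZBTB18, ZSCAN29, ZKSCAN1, ZKSCAN2, ZKSCAN5, ZSCAN31, ZSCAN25, ZBTB4, ZBTB44, ZBTB7A, ZBTB7B and ZBTB7C kept their direction and their call in each of the 14 alternative fits. ZBTB42 lost its call in 9, ZBTB33 and ZSCAN18 in 5 each, ZBTB1 and ZBTB26 in 4 each, ZBTB12 in 3 and ZBTB47 in 1. ZSCAN2 gained a call with library totals, upper-quartile factors, the stricter filter and limma voom, and without siNC 1 or siBYSL 3. ZBTB8OS gained a call with library totals, and ZBTB39 without siNC 1 or siBYSL 3. Leaving out 1 library at a time gave 10 to 18 members higher and 3 to 6 lower, 4 to 10 ZBTB genes higher and 2 to 5 lower, and 12 to 28 ZNF genes lower. Over all genes tested in the same fits, 12.6% to 23.5% were higher and 12.5% to 24.3% lower. The lowest ZBTB counts came without siNC 1 (4 higher) and siNC 3 (5 higher), the highest count of falls without siBYSL 3 (5), and the lowest ZNF count without siNC 3 or siBYSL 2 (12 each). Alternative fits were followed gene by gene for 28 members; among those of them that did not pass the test, the sign changed for ZBTB38 without siBYSL 1 (-0.02, range to 0.19), for ZKSCAN3 without siBYSL 3 (-0.01, range to 0.05) and for ZSCAN21 without siNC 1 (-0.05, range to 0.07). Members without a guide-seed match had 2 falls, of which 1 was a ZBTB gene; fewer members were counted there. Scaling by library totals moved the median of the members to 0.14 and of the ZNF genes to 0.32, and upper-quartile factors moved them to 0.11 and 0.29. With TMM factors the calls over all genes were nearly balanced (3032 higher and 3027 lower), and 78.9% of the members' calls were higher. The share of calls that were higher became 67.4% and 60.0% over all genes with library totals and upper-quartile factors. In members it became 85.0% and 84.2%. Over all genes, 4106 were higher and 1989 lower with library totals, and without a filter 10.7% and 11.8% of 29538 genes were. The other counts for the members and ZNF genes stayed within 1.5 times the reported value.

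With the replicate number as a block, 14 members were higher (ZBTB42 lost its call) and 4 lower, and 2802 genes were higher and 2764 lower in all. Deviations of same-numbered libraries correlated at -0.129, 0.0596 and 0.0106 over genes, and only those numbered 3 correlated best with their own number, so the numbers were not taken to pair the cultures. Depth limits the 5 untested members and the scarcest tested ones most.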

Other observations

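The table also held 11 entries of other gene classes whose symbols begin like those of the members, as long noncoding RNAs or pseudogenes. The 3 with enough counts to be tested had log2 fold changes of 0.67 (ZKSCAN2-DT, the divergent transcript at ZKSCAN2, edgeR adjusted p = 0.0629), 0.27 (ZBTB11-AS1, adjusted p = 0.128) and 0.27 (ZSCAN16-AS1, adjusted p = 0.136), and none passed the test. ZKSCAN2 itself rose by 0.78, while ZSCAN16 had a log2 fold change of 0.09.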
